A study of Mus musculus with 8 samples.

Results

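The genes described here encode the subunits of the mitochondrial respiratory chain and of the ATP synthase, in sorted mouse Kupffer cells. They were taken by gene symbol: the Nduf families of complex I, Sdha to Sdhd of complex II, the Uqcr genes and Cyc1 of complex III, Cox4 to Cox8 of complex IV, the Atp5 genes of complex V, and the protein genes of the mitochondrial genome, with pseudogene symbols left out. The symbols of 104 of the 56691 deposited genes matched, and 94 of these had 10 or more counts in at least 4 libraries; all 94 were among the 15870 genes tested. The 94 hold 81 nuclear genes (37 of complex I, 4 of complex II, 9 of complex III, 14 of complex IV and 17 of complex V) and 13 mitochondrial genes (7 of complex I, 1 of complex III, 3 of complex IV and 2 of complex V).

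The study compared Kupffer cells of Vsig4-/- mice (KO, 4 libraries) with Kupffer cells of WT mice (4 libraries), to ask what the loss of VSIG4, a macrophage receptor of the B7 family, does in a tumour-bearing liver. Both genotypes had been injected with B16F10 cells, a mouse melanoma line, and the livers carried B16F10 metastases 7 days later. The cells were sorted from digested livers as DAPI- CD45+ Tim-4+ and total RNA was sequenced in bulk. The labels give no age, sex or strain, do not name the promoter or exon of the Vsig4 allele, and do not say whether each library came from its own animal, so p-values measure the spread between libraries, part of which may be technical.

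The chain passes electrons from NADH (through complex I) and from succinate (through complex II) to ubiquinone, then through complex III and cytochrome c to complex IV, where oxygen is reduced. Complexes I, III and IV pump protons, and complex V uses the proton gradient to make ATP. Complex II is encoded by nuclear genes alone, while the other complexes combine nuclear subunits with a few hydrophobic core subunits made inside the organelle, so the complexes need transcripts of both genomes. In macrophages the balance of oxidative and glycolytic metabolism is known to shift with activation.

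Libraries held 15264043 to 19513844 counts. Vsig4 itself was counted 9, 6, 2 and 4 times in KO libraries and 40604, 46735, 22498 and 25498 times in WT libraries, which matches the genotype labels; it had a log2 fold change of -12.89 ± 0.53 (SE; edgeR quasi-likelihood test, adjusted p = 5.35e-05). All 7 Kupffer cell markers (Timd4, Clec4f, Marco, Cd5l, Adgre1, Folr2 and Csf1r) were present in every library, with summed levels of 19609, 19046, 6171 and 14569 CPM (counts relative to the TMM-scaled size of the library) in KO 1 to 4 and 29415, 29255, 15577 and 18007 CPM in WT 1 to 4. Transcripts of 10 melanocyte genes, such as Pmel, Tyrp1 and Dct, were present as well, at 2446, 3498, 12438 and 6476 CPM in KO 1 to 4 against 487, 418, 5509 and 4731 CPM in WT 1 to 4. KO 3 therefore had the most melanoma transcript and the least Kupffer cell transcript, and WT 1 and WT 2 the reverse. Within each of the 4 replicate numbers the KO library lay above the WT library in melanoma sum and below it in Kupffer cell sum. In bulk RNA, fewer cells of a type and less RNA per cell cannot be told apart.

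Most nuclear subunit genes had somewhat higher values in KO than in WT libraries, and the mitochondrial genes were divided. The median log2 fold change (KO minus WT) was 0.21 in complex I, 0.15 in complex II, 0.31 in complex III, 0.083 in complex IV and 0.27 in complex V. Among the mitochondrial genes it was -0.0093, a sign that turned under 2 other scalings (0.065 on total counts without TMM and 0.11 with limma on log2(FPKM + 1)). Over all tested genes the median was -0.0028, and under those 2 other scalings it was 0.085 and 0.055. Of the nuclear members 70 of 81 had a higher estimate in KO libraries, of the mitochondrial genes 6 of 13, and of all tested genes 7876 of 15870.

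None of these differences passed the test. In the edgeR quasi-likelihood fit with Benjamini-Hochberg adjustment over all 15870 genes at 0.05, 0 members were called in either direction, beside 0% of all genes called higher and 0.0063% (Vsig4 alone) called lower. The members' adjusted p-values lay between 0.492 and 0.982. DESeq2 and limma on log2(FPKM + 1) also called 0 members. At an unadjusted p under 0.05 edgeR gave 6 members, all higher in KO (Atp5g1, Atp5o, Ndufv2, Ndufa8, Uqcr10 and Cox5b). That is 6.38% of members, where 4.23% of all genes were higher and 4.56% lower at that level. DESeq2 gave 8 members and limma 10, fits for which the share over all genes was not worked out. The genotypes did not overlap in CPM for 2 members, Uqcr11 and Ndufa13, both higher in KO. That is 2.13% of members, near the 2.71% of all genes with KO wholly above WT, and 0 members had KO wholly below WT, as 2.85% of all genes did.

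Libraries with the same replicate number deviated together from their genotype means (correlation across genes 0.561, 0.544, 0.660 and 0.290 for numbers 1 to 4), so the number was also fitted as a block. Correlations between libraries with different numbers were not computed. Whether the pattern is particular to shared numbers was therefore not tested. With the block 11 members passed, all higher in KO: Ndufa4, Ndufa9 and Ndufs1 of complex I, Sdhb of complex II, Cyc1 and Uqcr10 of complex III, Cox5b and Cox7b of complex IV, and Atp5b, Atp5g3 and Atp5o of complex V. These are 11.7% of members, beside 8.98% of all genes called higher and 5.01% called lower in that fit. No mitochondrial gene passed in any of these fits, and 0 of the 13 reached an unadjusted p under 0.05 with edgeR (with or without the block), DESeq2 or limma. Each of the 11 had its KO library above the WT library of the same number in 4 of 4 pairs, as the melanoma sum did. The blocked fit picks genes whose difference repeats within numbers, so this follows largely from the selection. The share of all genes with that pattern was not worked out. The calls rested on few libraries, for the members as for all genes, of which 2220 passed with the block. With replicate number 1, 2 or 3 left out 0 members passed, beside 210, 2 and 1 of all genes. Without number 4, 10 members passed, 8 of them among the 11, beside 2199 of all genes. With the melanoma level added to the block, 0 members passed, beside 2 of all genes.

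**Figure D1:**
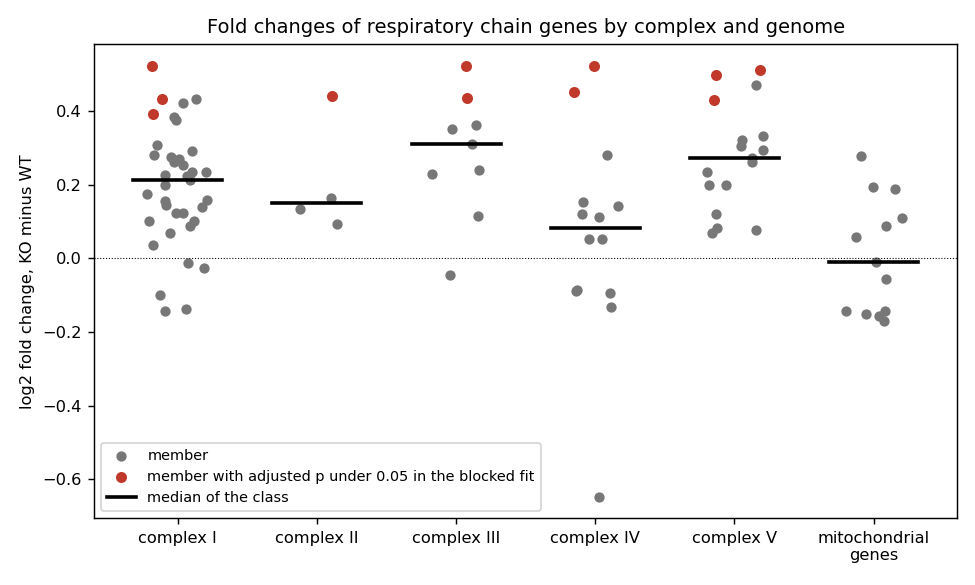
Log2 fold change (KO minus WT) of each of the 94 members, by complex (nuclear genes) and for the mitochondrial genes. Points are genes, red points those with an adjusted p under 0.05 in the fit with replicate number as a block, and bars class medians: the bars for complexes I, III and V lie at 0.21, 0.31 and 0.27, that of the mitochondrial genes at -0.0093.

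The shift was not even across libraries. Relative to its mean over the 8 libraries, the median complex I gene stood at -0.067, 0.040, 0.41 and 0.051 log2 CPM in KO 1 to 4 and at -0.20, -0.16, -0.0052 and 0.0036 in WT 1 to 4. In complex V it stood at -0.083, 0.034, 0.46 and 0.014 in KO 1 to 4 and at -0.31, -0.23, -0.062 and -0.025 in WT 1 to 4. KO 3 stood highest in all 5 nuclear classes, and KO 1 stood below the highest WT library in each of them. With KO 3 left out, the medians were 0.093 in complex I, 0.050 in complex II, 0.14 in complex III, 0.084 in complex IV and 0.15 in complex V. Summed over all nuclear members, KO libraries held 8017 ± 1483 CPM and WT libraries 6711 ± 574 CPM (SD, n = 4 each), with the lowest KO library (6800) below the highest WT library (7241).

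**Figure D2:**
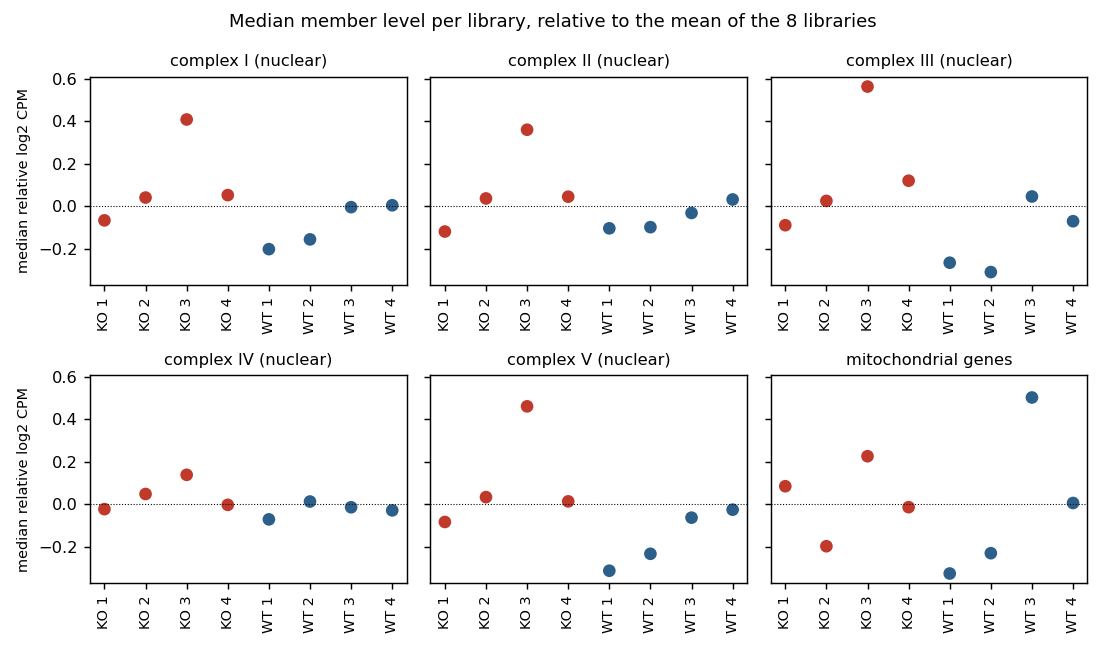
Median level of the members of each class in each library (log2 CPM relative to each gene's mean over the 8 libraries), KO libraries in red and WT libraries in blue. KO 3 is the highest library in each nuclear class, at 0.41 for complex I and 0.46 for complex V, and WT 3 is the highest for the mitochondrial genes.

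Complex I, the NADH dehydrogenase, is built of an NADH-oxidising tip (N module), a ubiquinone-binding part (Q module) and a proton-pumping membrane arm. The modules, grouped after their values were seen, had nearly the same median log2 fold change: 0.20 over 8 genes of the N module, 0.20 over 8 genes of the Q module and 0.21 over 20 genes of the membrane arm. Ndufs1, the largest subunit of the N module, which carries iron-sulfur clusters, had 99.5, 122, 239 and 153 CPM in KO 1 to 4, against 83.1, 81.2, 132 and 131 CPM in WT 1 to 4. KO 3 was the highest library and the genotypes overlapped. Its log2 fold change was 0.52 ± 0.29 (SE; 1.44-fold), and 0.48 ± 0.12 with the block (edgeR adjusted p = 0.0424).

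Ndufa9, which sits in the Q module, had 105, 116, 194 and 139 CPM in KO 1 to 4, against 87.5, 83.7, 129 and 122 CPM in WT 1 to 4. Its blocked log2 fold change was 0.38 ± 0.098 (edgeR adjusted p = 0.0433). Ndufa4 is grouped with complex I by its symbol, although its protein is known as a subunit of complex IV. It had 101, 116, 218 and 138 CPM in KO 1 to 4, against 76.0, 81.9, 138 and 128 CPM in WT 1 to 4, with a blocked log2 fold change of 0.42 ± 0.11 (edgeR adjusted p = 0.0425). In both genes KO 3 was the highest library and KO 1 lay below WT 3 and WT 4.

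At the other end, Ndufb1, a small membrane arm subunit (Ndufb1-ps in GENCODE M21), had 28.5, 28.8, 21.4 and 20.6 CPM in KO 1 to 4, against 27.0, 33.0, 24.7 and 24.9 CPM in WT 1 to 4 (log2 fold change -0.14 ± 0.16, edgeR adjusted p = 0.634). KO 3 and KO 4 were its lowest libraries and the highest of Ndufs1. Ndufa8 and Ndufv2 (an iron-sulfur subunit of the N module) were among the 6 members with an unadjusted p under 0.05. Ndufv2 had 82.9, 98.8, 117 and 91.2 CPM in KO 1 to 4, against 76.4, 74.6, 84.0 and 85.9 CPM in WT 1 to 4 (log2 fold change 0.28 ± 0.12). Ndufa8, a subunit of the intermembrane space side, averaged 65.3 ± 7.2 CPM in KO and 53.9 ± 5.6 CPM in WT libraries (SD, n = 4 each). Ndufa13, also a membrane arm subunit, did not overlap between genotypes at 49.6, 50.4, 51.8 and 47.6 CPM in KO 1 to 4, against 45.3, 46.6, 44.4 and 42.7 CPM in WT 1 to 4. Its log2 fold change was 0.16 ± 0.080, and the estimate was 0.18 ± 0.090 with the melanoma level in the model. In GENCODE M21 24.0% of its 100-base windows occur in another annotated gene, so part of its count may be shared. Per listed exonic gene size, Ndufa4 (108 ± 43 FPKM in KO and 75.4 ± 27 FPKM in WT) and Ndufc2 (87.0 ± 23 FPKM in KO and 71.4 ± 13 FPKM in WT) were the most abundant of the nuclear complex I genes.

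Complex II, the succinate dehydrogenase, is the member of the chain that also belongs to the citric acid cycle. All 4 of its genes were estimated higher in KO libraries, by 0.094 to 0.44 on the log2 scale. Sdhb, the iron-sulfur subunit, had 117, 141, 242 and 161 CPM in KO 1 to 4, against 95.8, 92.2, 152 and 146 CPM in WT 1 to 4, and a blocked log2 fold change of 0.43 ± 0.11 (edgeR adjusted p = 0.0460). Sdha, the flavoprotein that oxidises succinate, was nearly level at 208, 216, 241 and 206 CPM in KO 1 to 4, against 203, 209, 207 and 197 CPM in WT 1 to 4 (log2 fold change 0.094 ± 0.097). The genotypes overlapped in both genes. Sdhd, a membrane anchor and the most abundant of the 4 per length at 117 ± 25 FPKM in KO and 98.2 ± 11 FPKM in WT libraries, had a log2 fold change of 0.16 ± 0.14, and Sdhc, the other anchor, averaged 108 ± 13 CPM in KO and 98.0 ± 5.6 CPM in WT libraries (SD, n = 4 each).

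Complex III, the cytochrome bc1 complex, had the highest class median. Cyc1, cytochrome c1, which hands electrons to cytochrome c, had 79.8, 87.7, 167 and 111 CPM in KO 1 to 4, against 49.8, 64.1, 103 and 93.4 CPM in WT 1 to 4. Its log2 fold change was 0.52 ± 0.30 (1.44-fold), and 0.52 ± 0.10 with the block (edgeR adjusted p = 0.0273). KO 1 and KO 2 lay above WT 1 and WT 2 but below WT 3 and WT 4. Uqcr10, a small subunit near cytochrome c1, had 53.9, 57.7, 88.3 and 61.1 CPM in KO 1 to 4, against 41.1, 44.1, 57.7 and 50.1 CPM in WT 1 to 4 (blocked log2 fold change 0.42 ± 0.089, edgeR adjusted p = 0.0291). Uqcrb, which contacts the ubiquinone-binding region, had 113 ± 11 CPM in KO libraries beside 116 ± 12 CPM in WT libraries (log2 fold change -0.045 ± 0.12).

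Uqcr11 encodes another small subunit of complex III. It had 38.3, 38.7, 47.5 and 37.1 CPM in KO 1 to 4, against 34.2, 34.7, 34.2 and 34.8 CPM in WT 1 to 4, so every KO library lay above every WT library. The log2 fold change was 0.23 ± 0.10 (edgeR adjusted p = 0.492). Its promoter is shown because it is the member with non-overlapping genotypes for which the sequence table held motif matches. It spans chr10:80406772-80407071, minus strand of GRCm38.p6 (RefSeq), from 250 bases before to 50 bases after the transcript start. Capitals mark CCGGAAGT, the core read by ETS factors such as GABPA, and CGCATGCGC, the core read by NRF1 on the other strand.
Uqcr11 promoter: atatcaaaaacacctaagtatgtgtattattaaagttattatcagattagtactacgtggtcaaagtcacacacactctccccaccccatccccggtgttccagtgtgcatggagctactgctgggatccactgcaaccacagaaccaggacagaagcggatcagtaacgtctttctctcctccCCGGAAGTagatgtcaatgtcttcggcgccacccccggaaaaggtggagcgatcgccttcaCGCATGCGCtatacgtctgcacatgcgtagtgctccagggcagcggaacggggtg

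Complex IV, cytochrome c oxidase, was the least uniform of the nuclear classes, with 9 of 14 genes estimated higher and an SD of 0.28 between genes, beside 0.16 in complex I and 0.14 in complex V. The 14 include Cox6a2, Cox6b2 and Cox7a1, at 1.03 to 1.21 FPKM. Their log2 fold changes were -0.65 ± 0.41, -0.094 ± 0.42 and 0.054 ± 0.37, so the comparison rests in part on genes with few counts. Cox5b, a zinc-binding subunit on the matrix side, had 85.9, 103, 157 and 113 CPM in KO 1 to 4, against 61.8, 70.3, 96.7 and 90.6 CPM in WT 1 to 4. Its log2 fold change was 0.52 ± 0.21, and 0.51 ± 0.093 with the block (edgeR adjusted p = 0.0254). KO 1 was the KO library inside the WT range. Cox7b, a small membrane subunit, had 104, 109, 181 and 103 CPM in KO 1 to 4, against 75.4, 79.2, 113 and 95.7 CPM in WT 1 to 4 (blocked log2 fold change 0.43 ± 0.11, edgeR adjusted p = 0.0422).

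Cox5a, the other subunit 5, ran the opposite way from Cox5b across libraries; it was named after its values were seen. It had 146, 148, 119 and 128 CPM in KO 1 to 4, against 166, 168, 117 and 125 CPM in WT 1 to 4 (log2 fold change -0.089 ± 0.15). Cox5a was thus highest in WT 1 and WT 2, the libraries in which Cox5b was lowest. Cox7a2l, a supercomplex assembly factor also named after its values were seen, had 112, 111, 101 and 118 CPM in KO 1 to 4, against 129, 129, 115 and 112 CPM in WT 1 to 4 (log2 fold change -0.13 ± 0.096). The most abundant nuclear complex IV genes per length were Cox6b1 (171 ± 27 FPKM in KO and 155 ± 8.0 FPKM in WT) and Cox8a (137 ± 18 FPKM in KO and 119 ± 8.6 FPKM in WT), with log2 fold changes of 0.052 ± 0.11 and 0.12 ± 0.097.

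Several complex IV subunits exist as a widely expressed form and a form of muscle, heart, lung or testis, and Kupffer cell libraries carried the widely expressed form. Cox4i1 had 133 ± 16 FPKM in KO and 113 ± 9.2 FPKM in WT libraries, while Cox4i2, the lung isoform, was counted 6 times over the KO libraries and 5 times over the WT libraries. Cox6a2, the heart and muscle isoform, made up 0.466% to 2.13% of the FPKM of the Cox6a1 and Cox6a2 pair over the 8 libraries, Cox6b2, the testis isoform, 0.278% to 0.880% of its pair with Cox6b1, and Cox7a1, the muscle isoform, 0.724% to 2.39% of its pair with Cox7a2. Cox6a1 and Cox7a2 had log2 fold changes of 0.11 ± 0.087 and 0.28 ± 0.19. Cox6a2 had the lowest fold change of all members (-0.65 ± 0.41, edgeR adjusted p = 0.494) at 0.668, 0.663, 0.387 and 0.472 CPM in KO 1 to 4, against 0.569, 0.730, 1.49 and 0.643 CPM in WT 1 to 4, values near those of a few reads. Cox8b was counted 0 times in KO and 2 times in WT libraries, and Ndufa4l2, a paralog of Ndufa4, 12 and 16 times.

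The other 7 matching genes under the count minimum were Cox8c, Cox7b2, Cox6c2, Ndufb11b, Ndufa11b, Ndufb4c and Ndufs6b. Cox8c and Ndufb11b had 0 counts in all 8 libraries. Ndufb4c was counted most, 60 times in KO and 32 times in WT libraries, and the others between 0 and 29 times per genotype.

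Complex V had 17 of 17 genes estimated higher in KO libraries. The median log2 fold change was 0.32 over 5 genes of the catalytic head and central stalk, 0.43 over the 3 c-ring genes and 0.20 over 9 genes of the peripheral stalk and membrane part, groups that were also formed after the values were seen. Atp5b, the catalytic beta subunit, had 631, 699, 1232 and 851 CPM in KO 1 to 4, against 497, 506, 724 and 688 CPM in WT 1 to 4. Its log2 fold change was 0.50 ± 0.25 (1.41-fold), and 0.47 ± 0.12 with the block (edgeR adjusted p = 0.0412). Atp5a1, the alpha subunit of the same head, was the most abundant nuclear member with Atp5b, at 208 ± 54 FPKM in KO and 158 ± 24 FPKM in WT libraries, and had a log2 fold change of 0.31 ± 0.18. Atp5o, the peripheral stalk subunit that holds the head, had 104, 119, 194 and 131 CPM in KO 1 to 4, against 78.4, 83.9, 105 and 117 CPM in WT 1 to 4 (blocked log2 fold change 0.49 ± 0.12, edgeR adjusted p = 0.0415); 31.0% of its 100-base windows occur in another annotated gene. Atp5pb, another stalk subunit, was nearly level, at 213 ± 23 CPM in KO and 203 ± 6.0 CPM in WT libraries (log2 fold change 0.069 ± 0.11).

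The c-ring, the rotor that protons turn, is built from many copies of subunit c, and 3 genes, Atp5g1, Atp5g2 and Atp5g3, encode the same mature protein behind different import signals. Atp5g3 supplied most of their summed FPKM, 63.3% ± 2.5 in KO and 61.0% ± 1.9 in WT libraries, Atp5g2 30.1% ± 2.4 and 32.9% ± 1.7, and Atp5g1 6.54% ± 0.36 and 6.17% ± 0.78 (SD, n = 4 each). These shares depend on the listed exonic sizes, 4912 bases for Atp5g1, 1675 for Atp5g2 and 2181 for Atp5g3. In CPM, Atp5g1, Atp5g2 and Atp5g3 averaged 47.9, 74.5 and 208 in KO and 34.6, 63.2 and 154 in WT libraries. Atp5g3 had 157, 170, 296 and 209 CPM in KO 1 to 4, against 127, 125, 185 and 180 CPM in WT 1 to 4 (blocked log2 fold change 0.41 ± 0.10, edgeR adjusted p = 0.0421). Atp5g1 had the smallest unadjusted p of all members, with 35.4, 42.5, 62.6 and 51.3 CPM in KO 1 to 4, against 34.7, 28.8, 38.0 and 36.9 CPM in WT 1 to 4. Its log2 fold change was 0.47 ± 0.18, and with the block its edgeR adjusted p was 0.0518. Atp5g2 had a log2 fold change of 0.24 ± 0.16. The shares of the 3 transcripts overlapped between genotypes, and their order was the same in all 8 libraries.

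The promoters of the 3 c-ring genes are shown because their transcripts give the same mature protein from separate loci. Each spans 250 bases before to 50 bases after the transcript start on the minus strand of GRCm38.p6 (RefSeq): Atp5g1 at chr11:96075582-96075881, Atp5g2 at chr15:102670998-102671297 and Atp5g3 at chr2:73911277-73911576. Capitals mark matches to the NRF1 core, of which Atp5g2 had 2 that overlap on opposite strands, while Atp5g1 and Atp5g3 had no match to any of the 3 motifs searched.
Atp5g1 promoter: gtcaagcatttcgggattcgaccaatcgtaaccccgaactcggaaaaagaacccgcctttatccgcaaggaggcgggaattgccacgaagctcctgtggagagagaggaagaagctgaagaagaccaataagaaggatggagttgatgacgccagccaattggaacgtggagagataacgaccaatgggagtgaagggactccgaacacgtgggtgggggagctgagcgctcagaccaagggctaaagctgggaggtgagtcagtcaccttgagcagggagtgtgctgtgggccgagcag
Atp5g2 promoter: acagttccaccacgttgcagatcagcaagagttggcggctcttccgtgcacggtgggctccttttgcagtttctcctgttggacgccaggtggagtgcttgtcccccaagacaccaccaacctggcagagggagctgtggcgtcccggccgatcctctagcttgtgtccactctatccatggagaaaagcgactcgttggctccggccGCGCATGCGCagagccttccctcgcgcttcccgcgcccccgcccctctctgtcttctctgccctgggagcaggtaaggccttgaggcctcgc
Atp5g3 promoter: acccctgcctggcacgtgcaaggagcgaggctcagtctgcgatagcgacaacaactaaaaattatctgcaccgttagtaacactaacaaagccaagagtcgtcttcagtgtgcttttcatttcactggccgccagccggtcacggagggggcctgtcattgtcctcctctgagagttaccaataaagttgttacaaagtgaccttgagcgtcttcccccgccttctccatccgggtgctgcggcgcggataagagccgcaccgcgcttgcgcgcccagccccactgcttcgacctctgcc

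The set of RefSeq promoter sequences used here held a match for 67 of the 81 nuclear members and covered 27025 genes in all. GCGCATGCG (NRF1, a known activator of subunit genes) occurred on either strand in 8 of the 67, or 11.9%, beside 1.95% of all genes. CCGGAAGT (ETS factors) occurred in 5, or 7.46%, beside 4.31% of all genes, and AAGATGGC (YY1) in 10, or 14.9%, beside 3.19% of all genes. These letters do not overlap between motifs. Of the 9 members that passed with the block and had a promoter in the table, 0 held the NRF1 core, 0 the ETS core and 1, Ndufa9, the YY1 core. A match describes the letters in this window and is not a measured binding site.

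The 13 protein genes of the mitochondrial genome gave 5.41%, 4.65%, 6.05% and 5.49% of all counts in KO 1 to 4, against 3.94%, 4.30%, 7.92% and 5.33% in WT 1 to 4, or 5.40% ± 0.58 in KO and 5.37% ± 1.8 in WT libraries (SD, n = 4 each). The 95% exact binomial confidence interval of WT 3, the highest, ran from 7.91% to 7.93%; it covers counting error alone. WT 3 was the highest library and WT 1 the lowest, so the KO values all lay inside the WT range. Counts assigned to nuclear copies of these genes, described below, are not in these shares. WT 3 was also the library with the most hepatocyte transcript: the summed level of Alb, Apoa1, Ttr, Serpina1c, Fgb and Cps1 was 239, 151, 635 and 650.3 CPM in KO 1 to 4 and 493, 384, 1737 and 549.9 CPM in WT 1 to 4. Its part in the mitochondrial level was not tested. Without WT 3 the median log2 fold change of the 13 genes was 0.18.

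Per length, mt-Co1, the catalytic core of complex IV, was the most abundant of all members at 15512 ± 976 FPKM in KO and 16256 ± 4835 FPKM in WT libraries. The next were mt-Cytb, the core of complex III, at 8577 ± 1524 FPKM in KO and 7116 ± 2741 FPKM in WT, and mt-Nd1, the membrane arm subunit next to the quinone site, at 6240 ± 1013 FPKM in KO and 6572 ± 2224 FPKM in WT. The genotypes overlapped in each. This order is that of the deposited counts. In them mt-Co2, mt-Co3, mt-Atp6, mt-Nd3 and mt-Nd4l could not be counted apart from nuclear copies, as described below, so their rank is uncertain. mt-Cytb had 9215, 7918, 11331 and 9527 CPM in KO 1 to 4, against 6350, 6582, 12302 and 7962 CPM in WT 1 to 4 (log2 fold change 0.19 ± 0.32, edgeR adjusted p = 0.747). It was highest in WT 3 and KO 3, and lowest in WT 1 and WT 2.

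Among the complex I genes of the organelle, which encode the proton-pumping membrane core, log2 fold changes were -0.15 ± 0.28 for mt-Nd1, -0.17 ± 0.30 for mt-Nd2, -0.16 ± 0.24 for mt-Nd3, 0.060 ± 0.26 for mt-Nd4, 0.19 ± 0.21 for mt-Nd4l, -0.057 ± 0.27 for mt-Nd5 and -0.14 ± 0.24 for mt-Nd6, the gene on the light strand. Those of complex IV were -0.14 ± 0.38 for mt-Co1, 0.11 ± 0.20 for mt-Co2 and -0.0093 ± 0.18 for mt-Co3, and those of complex V 0.28 ± 0.23 for mt-Atp6, the proton channel, and 0.087 ± 0.23 for mt-Atp8. Each of these differences was smaller than its standard error, except that of mt-Atp6 (edgeR adjusted p = 0.548).

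Several mitochondrial genes could not be counted apart from nuclear copies. In the GENCODE M21 transcripts, 99.5% of the 100-base windows of mt-Co2, 99.9% of mt-Co3, 99.5% of mt-Atp6, 98.5% of mt-Nd4l and 97.6% of mt-Nd3 occur in another annotated gene, as do 60.8% of mt-Nd4, 30.8% of mt-Co1 and 3.20% of mt-Nd2. Those of the other 5 genes do not. The copies lie side by side on chromosome 1, and the deposited table gave them more counts than the mitochondrial gene itself in 5 cases: over the 8 libraries the copy took 76.9% of the joint count for mt-Atp6, 67.1% for mt-Nd3, 67.0% for mt-Nd4l, 61.7% for mt-Co2 and 59.3% for mt-Co3. With the copies' counts added, a step chosen after seeing the data, the log2 fold change of mt-Nd3 was 0.20 ± 0.24, the reverse of its sign alone, and the median over the 13 genes was 0.055. Over the 6 genes with no shared window or few (mt-Nd1, mt-Nd2, mt-Nd5, mt-Nd6, mt-Cytb and mt-Atp8), a set also chosen after seeing the data, it was -0.10. The levels of mt-Co2, mt-Co3, mt-Atp6, mt-Nd3 and mt-Nd4l are therefore uncertain. Only annotated genes were searched for shared windows. mt-Atp8 lies between mt-Co2 and mt-Atp6, whose copies are neighbours on chromosome 1, so its level may be uncertain too.

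mt-Nd4l shows the problem in full, since it is short enough to print: the gene lies at chrM:9877-10173, plus strand, and its copy Gm10222 at chr1:24612407-24612700, minus strand (GRCm38, GENCODE M21). The 294 bases that align have 0 mismatches. Capitals mark the bases identical to the chromosome 1 copy.
mt-Nd4l: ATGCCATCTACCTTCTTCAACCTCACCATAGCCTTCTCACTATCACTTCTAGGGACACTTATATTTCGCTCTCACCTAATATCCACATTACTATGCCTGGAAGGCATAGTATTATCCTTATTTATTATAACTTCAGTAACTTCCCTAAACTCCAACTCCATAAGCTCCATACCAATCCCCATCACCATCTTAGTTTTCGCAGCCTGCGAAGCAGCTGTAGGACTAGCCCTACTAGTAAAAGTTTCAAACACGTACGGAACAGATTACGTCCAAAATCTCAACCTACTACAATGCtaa

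**Figure D3:**
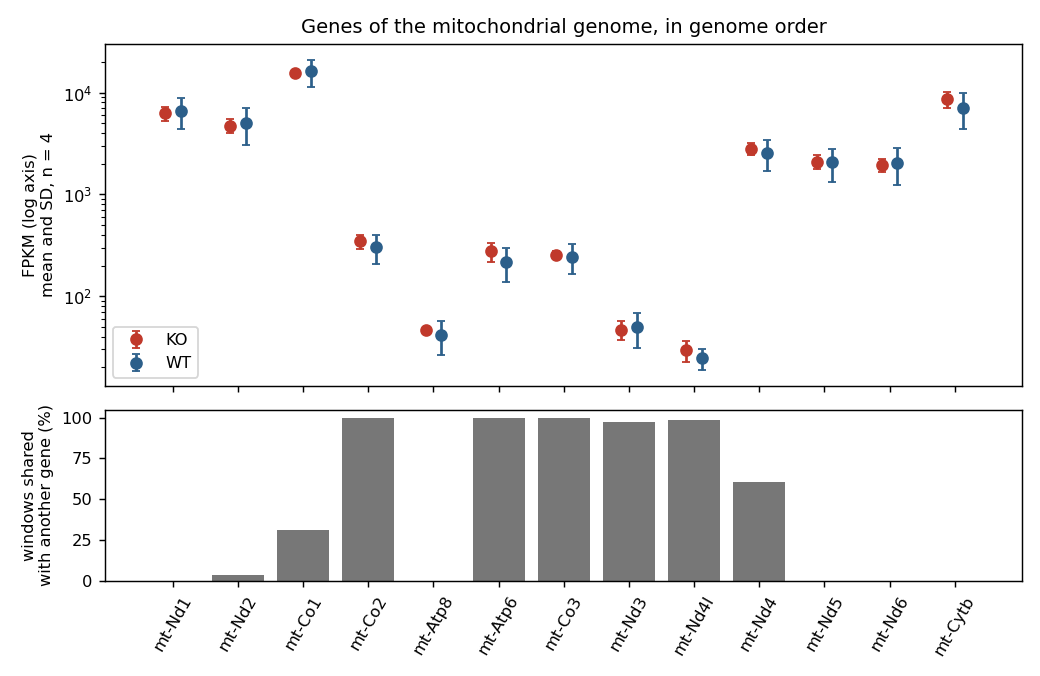
Upper panel: FPKM of the 13 mitochondrial genes in genome order, mean and SD of 4 KO libraries (red) and 4 WT libraries (blue), on a log axis. Lower panel: share of each gene's 100-base windows found in another annotated gene. Genes with low FPKM, such as mt-Co2 and mt-Atp6, have nearly all windows shared (99.5% each). mt-Atp8 also has low FPKM and shares no window with an annotated gene, but unannotated copies were not searched for.

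Set against the nuclear subunit genes, the 13 mitochondrial protein genes gave 8.07, 6.31, 5.60 and 6.63 counts per nuclear member count in KO 1 to 4, against 7.00, 7.43, 10.7 and 7.31 in WT 1 to 4. The mean was 6.65 ± 1.0 in KO and 8.11 ± 1.7 in WT libraries (SD, n = 4 each), and KO 1 lay inside the WT range. The ratio was lowest in KO 3, where nuclear members took the largest share of counts (1.08%, beside 0.671% to 0.828% in the other KO libraries and 0.563% to 0.741% in WT libraries). It was highest in WT 3. Counts assigned to the chromosome 1 copies are not in these ratios. The difference of medians, nuclear minus mitochondrial, was 0.22 on the log2 scale and 0.074 without WT 3.

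Every member that passed with the block had its lowest values in WT 1 and WT 2, where melanoma transcript was lowest. Each also had its highest value in KO 3. Between these ends the order was not always that of the melanoma genes. Cox5b and Atp5o were higher in KO 2 than in WT 3, which held more melanoma transcript, and Cox7b was lower in KO 4 than in KO 1, KO 2 and WT 3. Among members that did not pass, Cox5a and Cox7a2l were highest in WT 1 and WT 2, and Ndufb1 was lowest in KO 3 and KO 4. With the mean log2 CPM of the 10 melanoma genes as a covariate, the class medians were 0.045 in complex I, 0.047 in complex II, 0.059 in complex III, 0.10 in complex IV, 0.095 in complex V and -0.23 among the mitochondrial genes. The log2 fold change was then 0.034 ± 0.18 for Ndufs1, 0.049 ± 0.16 for Cyc1, 0.014 ± 0.14 for Sdhb and 0.13 ± 0.17 for Atp5b, beside 0.19 ± 0.14 for Cox5b and 0.19 ± 0.15 for Atp5o.

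Without WT 1, WT 2 and KO 3, the libraries at the ends of the melanoma range, the medians were 0.030 in complex I, 0.010 in complex II, 0.028 in complex III, 0.072 in complex IV, 0.045 in complex V and -0.29 among the mitochondrial genes, and 51 of 81 nuclear members had a higher estimate in KO. Only 5 libraries remain there, and their melanoma sums still differ. KO 1, KO 2 and KO 4 held 2446, 3498 and 6476 CPM, against 5509 and 4731 CPM in WT 3 and WT 4. WT 3, the highest library for the mitochondrial genes, is among the WT libraries left. With WT 3 alone left out the mitochondrial median was 0.18. The melanoma genes were estimated higher in KO for 10 of 10 markers and the Kupffer cell genes lower for 7 of 7, with 10 and 5 of them passing with the block. The covariate and the genotype overlap in part, so what belongs to each cannot be told apart with 8 libraries.

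**Figure D4:**
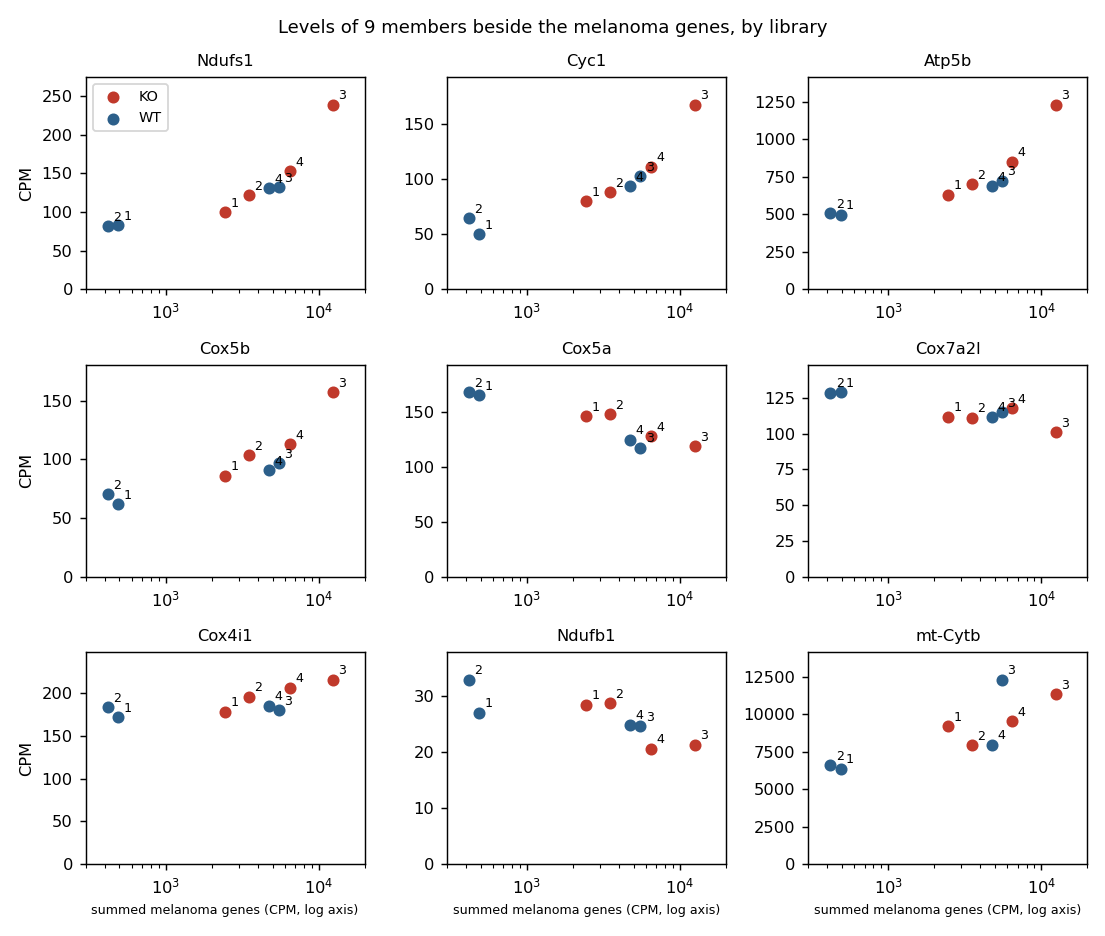
CPM of 9 members in each library against the summed CPM of 10 melanoma genes (log axis), KO in red and WT in blue, with replicate numbers. Ndufs1, Cyc1, Atp5b and Cox5b are lowest in WT 1 and WT 2 and highest in KO 3 (239 CPM for Ndufs1), while Cox5a and Cox7a2l are highest in WT 1 and WT 2.

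**Figure D5:**
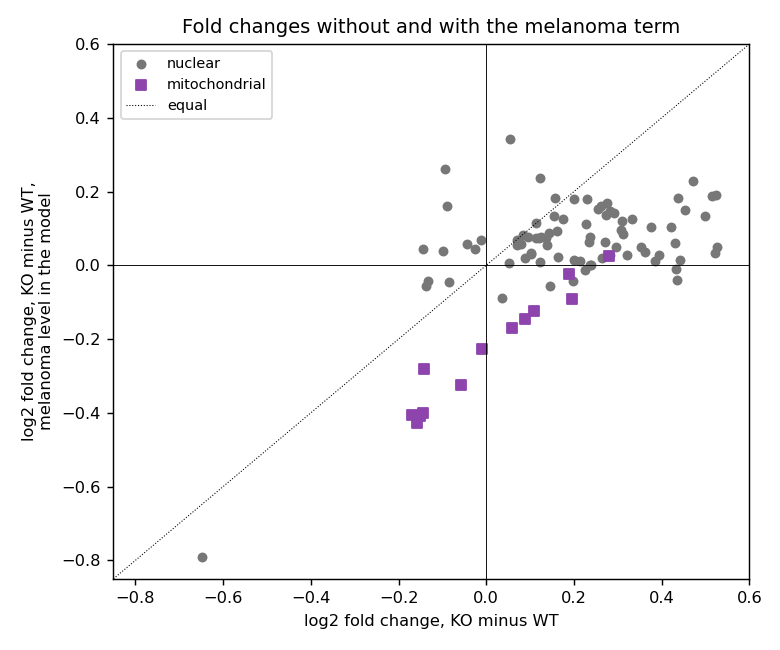
Log2 fold change (KO minus WT) of the 94 members without (x axis) and with (y axis) the melanoma level as a covariate; grey circles are nuclear and purple squares mitochondrial genes, and the dotted line marks equal values. The 11 members that passed with the block lie right of 0.39 on the x axis and at or below 0.19 on the y axis, and 12 of the 13 mitochondrial genes lie below 0 there.

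Genes that build or feed the chain were read from lists chosen for their role. Of 14 complex I assembly factors 12 had a higher estimate in KO (median log2 fold change 0.36), of 13 for complexes II, III and V 11 (0.20), of 18 for complex IV 12 (0.088), of 24 genes of mitochondrial transcription and RNA processing 20 (0.18), of 8 regulators of subunit genes 6 (0.11), of 15 for ubiquinone, cytochrome c and electron transfer 13 (0.21), of 14 citric acid cycle enzymes 14 (0.33) and of 78 mitochondrial ribosomal proteins 72 (0.25). In the edgeR fit without the block 0 genes of these 8 lists passed, as with DESeq2 and limma. In that edgeR fit 1, 0, 0, 1, 0, 0, 2 and 11 genes had an unadjusted p under 0.05, in the same order of lists. At that level 4.23% of all genes were higher and 4.56% lower. With the block 2, 0, 1, 1, 1, 1, 5 and 13 passed, all higher in KO, beside the 8.98% of all genes given above. With the block and the melanoma level together 0 passed. With the melanoma covariate alone the 8 medians lay between 0.016 and 0.12.

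In the citric acid cycle, Mdh2, malate dehydrogenase, averaged 203 ± 55 CPM in KO and 135 ± 16 CPM in WT libraries with no overlap (blocked log2 fold change 0.56, edgeR adjusted p = 0.0274), and Idh3a, a subunit of isocitrate dehydrogenase, 147 ± 57 CPM in KO and 89.4 ± 27 CPM in WT (0.70, edgeR adjusted p = 0.0254). Of the mitochondrial ribosome, Mrpl30 averaged 49.6 ± 13 CPM in KO and 33.7 ± 6.3 CPM in WT (blocked log2 fold change 0.54, edgeR adjusted p = 0.0254) and Mrps6 24.6 ± 3.0 CPM in KO and 17.6 ± 1.7 CPM in WT (0.48, edgeR adjusted p = 0.0417). Mrps6 had a log2 fold change of 0.39 ± 0.14 (SE) with the melanoma covariate and did not pass there (edgeR adjusted p = 0.557). Twnk, the mitochondrial DNA helicase, averaged 25.0 ± 3.7 CPM in KO and 16.4 ± 4.2 CPM in WT with no overlap (blocked log2 fold change 0.63, edgeR adjusted p = 0.0329). Of all genes 2.71% had KO wholly above WT, and Mdh2 and Twnk were picked from their lists by smallest p. Cox10, which makes heme for complex IV, averaged 19.0 ± 6.2 CPM in KO and 12.5 ± 3.7 CPM in WT (0.60, edgeR adjusted p = 0.0334), and Ndufaf7, a methyltransferase of complex I assembly, 22.5 ± 7.7 CPM in KO and 15.8 ± 4.3 CPM in WT (0.49, edgeR adjusted p = 0.0476).

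Further genes of these lists that passed with the block, named after their values were seen, were Ecsit of complex I assembly, the citric acid cycle enzymes Fh1, Idh2 and Suclg2, Cycs (cytochrome c itself) and Ppargc1a, which encodes the coactivator PGC-1alpha of mitochondrial biogenesis. Ppargc1a had 19.5, 23.4, 67.9 and 43.4 CPM in KO 1 to 4, against 2.56, 3.03, 35.6 and 32.8 CPM in WT 1 to 4, the same order of libraries as the melanoma sum, apart from WT 1 and WT 2 changing places. The log2 fold change was 1.06 ± 0.86 (SE), 1.63 ± 0.43 with the block (edgeR adjusted p = 0.0457) and 0.076 ± 0.15 with the melanoma covariate. Cycs had 152, 173, 369 and 202 CPM in KO 1 to 4, against 104, 102, 197 and 176 CPM in WT 1 to 4 (0.63 ± 0.33, and 0.082 ± 0.18 with the covariate).

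The other genes named from these lists did not pass with the block. Of those below, Ndufaf5, Pdss1 and Gabpb1 had every KO library above every WT library, and Esrra every KO library below. Over all genes KO lay wholly above WT in 2.71% and wholly below in 2.85%, and the genes here were picked by smallest p. Log2 fold changes without the block were 0.49 ± 0.20 for Ndufaf5, 0.33 ± 0.18 for Uqcc1 and 0.31 ± 0.19 for Sco1, a copper chaperone of complex IV. They were 0.50 ± 0.25 for Tfb1m, an rRNA methyltransferase, 0.37 ± 0.17 for Pdss1 and 0.62 ± 0.30 for Coq4, both of ubiquinone synthesis. Sdhaf2, which attaches the flavin to Sdha, had -0.27 ± 0.12. Among the regulators, Gabpb1, a subunit of an ETS factor, averaged 28.7 ± 1.3 CPM in KO and 25.3 ± 1.3 CPM in WT (log2 fold change 0.18 ± 0.096). Esrra, a nuclear receptor that activates subunit genes, averaged 52.9 ± 7.9 CPM in KO and 61.4 ± 3.2 CPM in WT (-0.21 ± 0.12).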

How the data were processed

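Kupffer cell RNA was sequenced in 8 bulk libraries, 4 KO and 4 WT. Per the submitters' processing notes, reads were counted with HTSeq 0.6.1 and the genome build was mm10; no source used here gives the aligner, the annotation or the strand setting. The authors deposited a table with raw read counts and FPKM values per gene. In the deposited FPKM column each value equals the count divided by the listed gene size and by the total count of its library, up to a constant. Symbols were taken from that table. Gene coordinates in it carry no stated build, so positions were read from RefSeq (GRCm38.p6) and GENCODE M21.

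Genes kept by filterByExpr (15870) were TMM-scaled and fitted with edgeR 4.0.16 (R 4.3.3; 2-sided quasi-likelihood F test, Benjamini-Hochberg over all tested genes, threshold 0.05), genotype alone in the model. CPM uses the same scaling. SE is the absolute log2 fold change divided by the square root of F. DESeq2 1.42.0, limma 3.58.1 on log2(FPKM + 1), other scalings and count filters, each library left out, and the replicate number as a block were alternatives. The numbers were taken to pair libraries from the data alone (each same-number correlation was above 0.1). Libraries with different numbers were not compared, and the labels do not say what a number stands for. A covariate (mean log2 CPM, prior count 2, of 10 melanoma genes) was a further alternative. The scripts were tested on simulated counts. The common biological coefficient of variation was 33.3%, and 18.0% with the block. A count of 3 in a library corresponds to 0.153 to 0.214 CPM.

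The members and all gene lists were chosen with earlier results of these data known. Genes were named by rule: all 13 mitochondrial genes; in each nuclear complex the 2 highest in FPKM, the highest and lowest in fold change and up to 3 passing with the block; the 5 smallest p-values; the isoform pairs; and up to 2 genes per list. Cox5a, Cox7a2l, Ndufa13, Ndufv2, Sdhc, Uqcr11 and the genes counted in groups of few were added after their values were seen.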

Additional observations from a re-analysis of the deposited data

Results flagged for a closer look

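All 94 members and the 6 class sums were screened in each genotype for a library far from the other 3 (Dixon's criterion at 95%). Of 200 groups 9 met it, where chance gives about 1 in 20. Of the 9, 5 were high values in KO 3: Sdhd at 178 CPM (other KO libraries 123 to 131 CPM), Cox7b at 181 CPM (103 to 109 CPM), Atp5mpl at 101.3 CPM (61.2 to 67.0 CPM), Ndufv3 at 57.3 CPM (41.1 to 42.2 CPM) and Uqcr11 at 47.5 CPM (37.1 to 38.7 CPM). Uqcrb stood at 96.4 CPM in KO 4, below 116 to 119.7 CPM in the other KO libraries, and Ndufa2 at 21.0 CPM in KO 4, below 25.6 to 26.1 CPM. Ndufa8 stood at 54.5 CPM in KO 1, below 68.0 to 69.8 CPM. Ndufa3 stood at 29.3 CPM in WT 3, below 34.7 to 35.5 CPM in the other WT libraries. KO 3 was also the library with the most melanoma transcript (12438 CPM); its part in these values was not tested.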

How the results depend on the processing

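Over all genes 1 gene passed with the design as given. The count was 2 with no filter on low counts, 62 with DESeq2, 2220 with the replicate block and 2 with the block and the melanoma level, and 1 to 2 with each library left out. With the block and replicate number 1, 2, 3 or 4 left out it was 210, 2, 1 and 2199. Members passing were 11 with the block, 10 with the block and without number 4, and 0 under the other settings. The block changed the call of no other member. The median log2 fold change of complex I was 0.045 with the melanoma level, 0.030 without WT 1, WT 2 and KO 3, and 0.093 (without KO 3) to 0.28 with each library left out. That of complex V was 0.095 with the melanoma level and 0.045 without those 3 libraries. The fits without 3 libraries, without a replicate number, with the block and melanoma level together, with the chromosome 1 copies added and on mitochondrial genes without shared windows were chosen after seeing the data; the causes of these differences were not tested. The sign of the fold change turned for 18 of 94 members with the melanoma level, 41 without the 3 libraries, 8 without WT 3, 7 on total counts without TMM and 0 with RLE size factors. The median of all genes moved to 0.085 on total counts. Depth limits the restricted isoforms, which had few counts. With 4 libraries per genotype and a wide spread, a p above the threshold does not show that levels were alike.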
